A study of Mus musculus with 28 samples.

Results

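Sorted mouse embryonic stem cells (mESCs) and sorted 2-cell-like cells (2CLCs) were compared by their H3K9me2 domains while the methyltransferase EHMT2 was present. The comparison used the deposited list of domains for each cell state under DMSO, restricted to chromosomes 1 to 19. Each list held exactly 3870 domains on these chromosomes, of 4329 domains in mESCs and 4248 in 2CLCs over all chromosomes. Of the 28 libraries in the series, 12 stand behind the lists, with 3 immunoprecipitation and 3 input libraries for each cell state.

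H3K9me2 is a histone mark of silenced chromatin that EHMT2 and its partner EHMT1 place over long stretches of the genome. It is typical of gene-poor, late-replicating regions with many interspersed repeats, and of families of genes that are used in a single cell type, such as odorant receptors. A small fraction of cells in an mESC culture passes through the 2CLC state at any time, in which MERVL endogenous retroviruses and genes of the 2-cell embryo are transcribed. Whether broad H3K9me2 domains are laid out differently in these cells than in the mESCs they arise from is the question the comparison addresses.

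Both groups came from the line EHMT2-dTAG-mcherry MERV-GFP, of BL6/129 hybrid background, in which a degron tag and an mCherry reporter were joined to the endogenous Ehmt2 gene and GFP reports MERVL activity. Cells grew in FBS and LIF for 72 h with DMSO, the solvent of the degrader dTAG-13, so both groups carry the tagged allele and neither received the degrader. About 100000 GFP-negative cells were sorted as mESCs and as many GFP-positive cells as 2CLCs, and native chromatin was precipitated with the antibody ab1220 (ULI-NChIP, a protocol for small numbers of cells). The methods describe 3 independent experiments with 1 clone, and mESC culture on fibroblast feeders. The retinoic acid receptor agonist TTNBP was given in 2 of the replicates according to the labels, which do not name them, and in the sorted experiments generally according to the methods. The lists hold positions and no transcript values, so the identity of the sorted cells could not be checked against marker genes. No library has values of its own in them, which leaves no replicate spread to compare with and no test between the cell states. Shares of domains, genes or promoters carry Wilson 95% intervals in parentheses, which cover counting along the genome only. The depth behind the domains is unknown, and presence in a domain is not a level of the mark.

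Most H3K9me2 domain bases were common to both cell states, and the part that differed was larger in mESCs. Domains covered 52.4% of the autosomes in mESCs and 49.7% in 2CLCs. Shared bases came to 1138 Mb. A further 152 Mb lay in mESC domains only and 86.7 Mb in 2CLC domains only, a ratio of 1.75. Thus 11.8% of mESC domain bases and 7.09% of 2CLC domain bases were outside the other set. The mESC-only length exceeded the 2CLC-only length on 18 of 19 chromosomes. Chromosome 16 was the exception, with 4.00 Mb against 4.07 Mb and a ratio of 0.983, and the ratio was highest on chromosome 8, at 3.29. On chromosome 9, which had the highest share of mESC-only bases, they made up 8.83% of the chromosome against 2.91% for 2CLC-only bases, and 79.3% of mESC domain bases were shared there, the lowest value. Chromosomes 2 and 3 were nearly even, with ratios of 1.04 each.

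**Figure D1:**
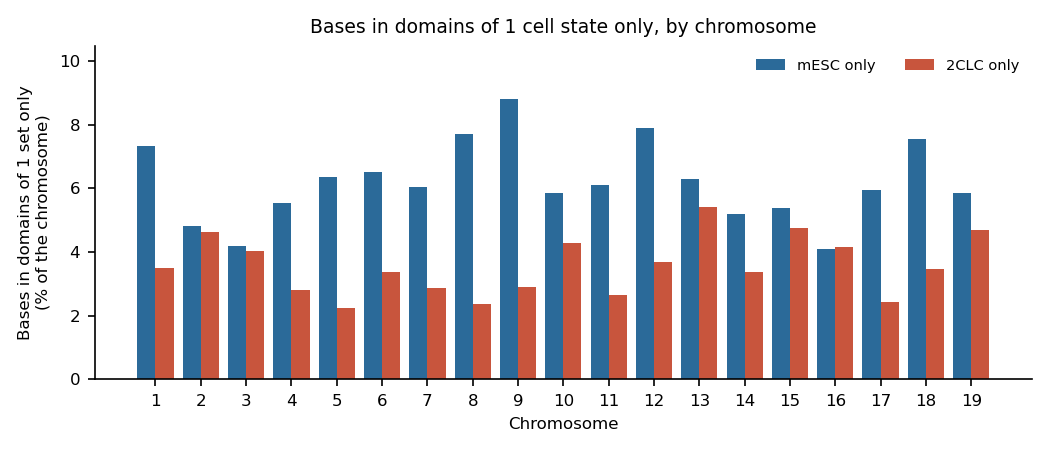
Bases in domains of only mESC DMSO (blue) or only 2CLC DMSO (orange) as a percentage of each of the 19 autosomes, with 1 value per set and no replicates. The mESC-only bar is the taller on 18 chromosomes, and the bars are of similar height on chromosomes 2, 3 and 16.

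The equal numbers of domains hid a difference in their widths. The median domain was 145 kb wide in mESCs (quartiles 65 and 360 kb) and 120 kb in 2CLCs (quartiles 55 and 294 kb). At the wide end the order turned round. The widest autosomal domain spanned 5910 kb in mESCs and 11475 kb in 2CLCs. That 2CLC domain overlapped 2 or more mESC domains, so the contrast depends on gaps between mESC domains. Widths were not recomputed with narrow gaps joined. The 50% of domain bases in the widest domains took 410 domains in mESCs and 327 in 2CLCs. The 2CLC list therefore held both narrower typical domains and a few wider ones.

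Domains were next grouped by which domains of the other list they overlap. A domain matched to a single domain that itself matched no other made a 1-to-1 pair, and there were 1250 of these, 32.3% of either list (30.8% to 33.8%). In 333 places 1 mESC domain was broken into 2 or more 2CLC domains, 795 in all. In 236 places, 567 mESC domains were fused into single 2CLC domains. A further 319 groups had 2 or more domains in each list, with 943 from mESCs and 920 from 2CLCs, and these mixed groups held 39.9% of mESC and 41.8% of 2CLC domain bases. Fragmentation thus ran in both directions. Counting every domain, 771 mESC domains (19.9%, 18.7% to 21.2%) overlapped 2 or more 2CLC domains, and 674 2CLC domains (17.4%, 16.3% to 18.6%) overlapped 2 or more mESC domains. These counts rest on narrow gaps. When domains of a list were joined across gaps of up to 10 kb, they fell to 318 and 240.

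Domains found in 1 cell state made up a larger share of domains than of bases. In mESCs, 777 domains (20.1%, 18.8% to 21.4%) shared no base with a 2CLC domain. In 2CLCs, 669 (17.3%, 16.1% to 18.5%) shared none with an mESC domain. They were narrow, with medians of 55 kb and 45 kb, and held 5.09% of mESC and 3.12% of 2CLC domain bases. At least 200 kb was reached by 56 of the mESC-only domains and by 7 of the 2CLC-only domains. Within 25 kb of a domain of the other list lay 23.0% of the mESC-only and 26.5% of the 2CLC-only domains, and the median distance to the nearest one was 100 kb and 90 kb. When narrower domains than 50 kb were left out of both lists, the 2CLC-only number dropped from 669 to 388 and the mESC-only number to 549. Both numbers include domains whose narrow partners were left out. Against the full other list, 314 2CLC and 441 mESC domains of at least 50 kb shared no base.

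**Figure D2:**
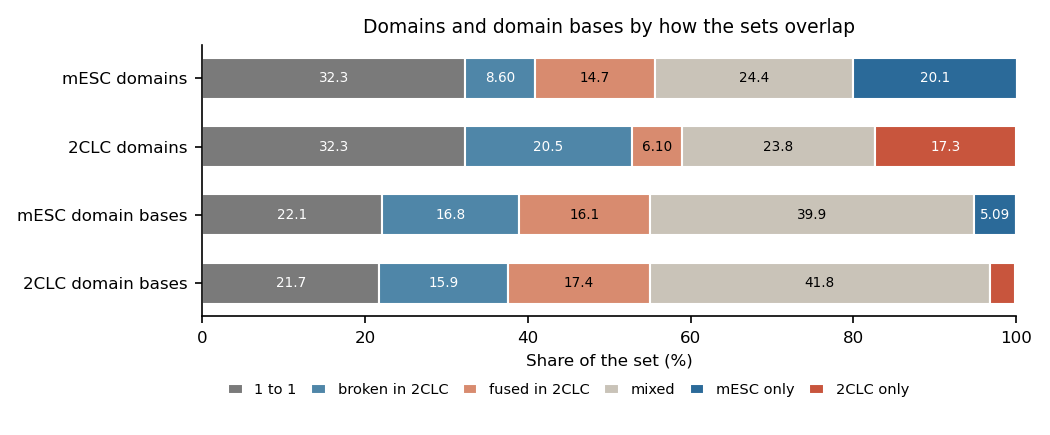
Share of the 3870 domains and of the domain bases of each list by class of overlap, as stacked bars in percent with no replicates. Domains of 1 state only take 20.1% of mESC and 17.3% of 2CLC domains but few of the bases, while mixed groups take about as large a share of bases in either list.

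The bases found in 1 state were then sorted by where they lie, as a domain of its own, as an extension at the edge of a shared domain, or as the filling of a gap between neighbouring domains of the other list. Domains of their own and edges were of similar weight in mESCs, with 65.7 Mb and 65.6 Mb of the 152 Mb, and filled gaps gave 20.9 Mb. In 2CLCs the corresponding lengths were 38.2, 34.6 and 14.0 Mb. Every kind was longer in mESCs. Stretches of at least 200 kb numbered 113 in mESCs and 13 in 2CLCs, and 48 and 4 of them were edges. Of all stretches found in 1 list, 33.3% in mESCs and 36.3% in 2CLCs were a single 5 kb bin, the step of the grid on which the domains were called.

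Gaps of a single bin made the larger part of the fusions and breaks by number. Of the 961 single-bin gaps between mESC domains, 641 (66.7%, 63.7% to 69.6%) were filled by a 2CLC domain, and of the 965 in 2CLCs, 689 (71.4%, 68.5% to 74.2%) were filled by an mESC domain. Only 80 single-bin gaps were the same in both lists. Wide gaps were filled far less often. Of gaps of at least 5 bins, 5.68% between mESC domains were filled in 2CLCs and 7.74% between 2CLC domains were filled in mESCs. Filled wide gaps were 127 in the first direction and 176 in the second, with 7.70 Mb and 14.3 Mb. A gene start stood in 7.02% (5.29% to 9.26%) of the single-bin gaps that 2CLC domains filled and in 3.48% (2.35% to 5.13%) of those that mESC domains filled.

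Domains matched 1 to 1 moved their borders a little. Of their 2500 borders, 727 (29.1%) were at the same bin in both lists and 1540 (61.6%) within 2 bins. Both borders were the same in 108 of the 1250 pairs. The mESC domain was the wider in 611 pairs and the 2CLC domain in 495, and 14 of 19 chromosomes had more pairs wider in mESCs. Where a border lay further in for 2CLCs the median shift was 20 kb (955 borders), and where it lay further out 10 kb (818 borders). The median difference in width over all pairs was 0 kb.

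The widest domains with identical borders covered tandem gene families and gene-poor regions. The widest, 2925 kb on chromosome 7 (31184621 to 34109616), held 29 protein-coding gene starts including Scgb1b and Scgb2b genes, which encode secretoglobins, the androgen-binding proteins of saliva. The second, 2325 kb on chromosome 4 (59934539 to 62259535), held the major urinary protein genes Mup4, Mup6 and Mup7 among its 23 gene starts. The third, 1495 kb at the start of chromosome 1 (2995206 to 4490203), held Xkr4 and Rp1. The other two were 1465 kb on chromosome 12 with no protein-coding gene start and 1285 kb on chromosome 17 with that of Slc8a1, a sodium-calcium exchanger.

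The widest domains found in 1 list only were gene clusters of repeated sequence, and so were the 2 widest domains with identical borders. The widest domain found in mESCs only spanned 2530 kb on chromosome 4 (145324425 to 147854421) and held 22 protein-coding gene starts, among them Zfp990, Zfp980, Zfp986, Zfp987, Zfp600 and Rex2, zinc finger genes of a kind that in many cases bind transposable elements. No 2CLC domain lay nearer to the Zfp990 start than 636 kb. In this region 56.2% of positions start a 50-mer that recurs on the chromosome, and 17.1% of bases are N in the assembly. The widest domain found in 2CLCs only spanned 750 kb on chromosome 1 (84925096 to 85675094) and held 8 gene starts, among them Sp100, Sp110 and Sp140, which encode proteins of nuclear bodies, and Slc16a14, a member of the monocarboxylate transporter family. There 51.0% of positions start a recurring 50-mer and 13.3% of bases are N. Reads with several matches were placed at random among best matches upstream, and the part of this in both results was not tested. Repeats were as common in the 2 widest domains with identical borders. Recurring 50-mers start at 54.9% of positions in the one on chromosome 7 and at 68.1% in the one on chromosome 4, where 17.2% of bases are N.

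Promoters of both kinds of place are shown because they let the repeated clusters be seen beside single-copy regions. They are the 250 bases before the start in RefSeq on GRCm38.p6, all on the plus strand, with CG dinucleotides, the sites of DNA methylation, in capitals. The first pair belongs to the chromosome 4 cluster, Zfp600 at chr4:146156577-146156826 and Rex2 at chr4:147021600-147021849, and is identical at 246 of 250 positions. Gpr39, a zinc-sensing receptor, is at chr1:125676746-125676995 in the second-widest mESC-only domain. Sp100 is at chr1:85649738-85649987, and Trpm3, a cation channel, at chr19:22138796-22139045 in the fourth-widest 2CLC-only domain.
Zfp600: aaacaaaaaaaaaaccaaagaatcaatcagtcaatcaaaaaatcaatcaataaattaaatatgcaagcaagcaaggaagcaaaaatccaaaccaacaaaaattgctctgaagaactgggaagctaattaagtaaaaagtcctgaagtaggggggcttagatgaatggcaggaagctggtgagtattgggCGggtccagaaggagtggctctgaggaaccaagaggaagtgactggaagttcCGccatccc
Rex2: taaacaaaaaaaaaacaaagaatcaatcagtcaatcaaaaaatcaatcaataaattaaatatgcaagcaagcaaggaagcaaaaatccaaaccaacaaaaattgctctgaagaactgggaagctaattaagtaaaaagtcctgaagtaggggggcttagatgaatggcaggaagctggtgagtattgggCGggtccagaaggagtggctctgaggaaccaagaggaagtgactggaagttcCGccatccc
Gpr39: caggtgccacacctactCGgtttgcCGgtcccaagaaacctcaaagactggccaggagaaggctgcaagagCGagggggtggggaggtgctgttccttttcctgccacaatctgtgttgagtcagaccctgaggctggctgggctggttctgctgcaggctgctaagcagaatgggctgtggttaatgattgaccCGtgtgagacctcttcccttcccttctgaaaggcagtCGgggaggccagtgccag
Sp100: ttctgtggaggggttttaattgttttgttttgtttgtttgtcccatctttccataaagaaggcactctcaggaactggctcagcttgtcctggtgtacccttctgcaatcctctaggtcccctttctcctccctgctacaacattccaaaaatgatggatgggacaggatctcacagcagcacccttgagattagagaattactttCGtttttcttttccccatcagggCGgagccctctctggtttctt
Trpm3: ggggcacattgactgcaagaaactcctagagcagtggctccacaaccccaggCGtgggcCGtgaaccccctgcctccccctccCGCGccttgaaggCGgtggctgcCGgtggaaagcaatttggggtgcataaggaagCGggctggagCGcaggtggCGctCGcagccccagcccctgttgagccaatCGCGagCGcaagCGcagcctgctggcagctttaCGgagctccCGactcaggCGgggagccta
These windows held 2 CG dinucleotides in Zfp600, 2 in Rex2, 5 in Gpr39, 2 in Sp100 and 17 in Trpm3. Gene starts in GENCODE and RefSeq differed by at most 3 bases for these genes. A RefSeq promoter was found under the symbol for 458 of 621 gene symbols with a start in mESC domains only and 571 of 763 with a start in 2CLC domains only.

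The wide differences outside repeats were mostly on the mESC side and poor in genes. The second-widest mESC-only domain spanned 1050 kb on chromosome 1 (125675042 to 126725040) with the starts of Gpr39 and Lypd1, and 2.81% of its positions start a recurring 50-mer. Others of this rank were 555 kb and 490 kb on chromosome 8, with no protein-coding gene start. The widest gaps of 2CLCs that mESC domains filled were 480 kb on chromosome 14 with the start of Lrtm1, 460 kb on chromosome 11 with that of Gria1, an AMPA glutamate receptor subunit, and 390 kb on chromosome 1 with that of Tnp1, a protein that packs sperm DNA. On the 2CLC side, the next 4 domains were 270 kb on chromosome 10, 265 kb on chromosome 15 with C9 of the complement system and Fyb, 220 kb on chromosome 19 with Trpm3, and 210 kb on chromosome 19. Each of these was narrower than all 5 of the mESC-only domains.

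The largest gaps of mESCs that 2CLC domains filled were again tandem repeats. A gap of 515 kb on chromosome 14 (5961140 to 6476138) held 13 gene starts including Gm3248, Gm3453 and Gm6337, and one of 300 kb on chromosome 7 (20799635 to 21099633) held 8, Vmn1r114 to Vmn1r121, which encode pheromone receptors. Recurring 50-mers start at 81.6% and 87.3% of their positions. The remaining gaps of this rank were 145 kb each, on chromosomes 15, 6 and 10, with no gene start and at most 2.33% recurring 50-mers. Among edges, 820 kb on chromosome 12 was found in mESCs only, with 1 gene start, Gm10330, and 86% recurring 50-mers. In 2CLCs the widest edges were 420 kb on chromosome 13 with Prl2c3 and Prl2c2, placental proliferins, and 380 kb on chromosome 10 with AW822073, Duxf3 and Gm4981. Duxf3 is a copy of Dux, the homeobox factor that switches on 2-cell genes, and 88.4% of the bases of that edge are N, so that reads cannot be placed in most of it.

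Breaks and fusions also had extreme cases. The mESC domain over most 2CLC domains, 2260 kb on chromosome 8 (15272989 to 17532985), met 10 of them, which covered 87.4% of it. The next, 1080 kb on chromosome 8 with the start of Cntnap4, a neuronal adhesion protein, met 8, which covered 66.7%. In the other direction, a 2CLC domain of 5765 kb on chromosome 14 (87531031 to 93296022) joined 8 mESC domains that already covered 97.9% of it, and its only protein-coding gene start was that of Pcdh20. Among the 5 domains examined in each direction, those fused in 2CLCs had up to 2.10% of their length outside mESC domains, and those broken in 2CLCs had up to 33.3% outside 2CLC domains.

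**Figure D3:**
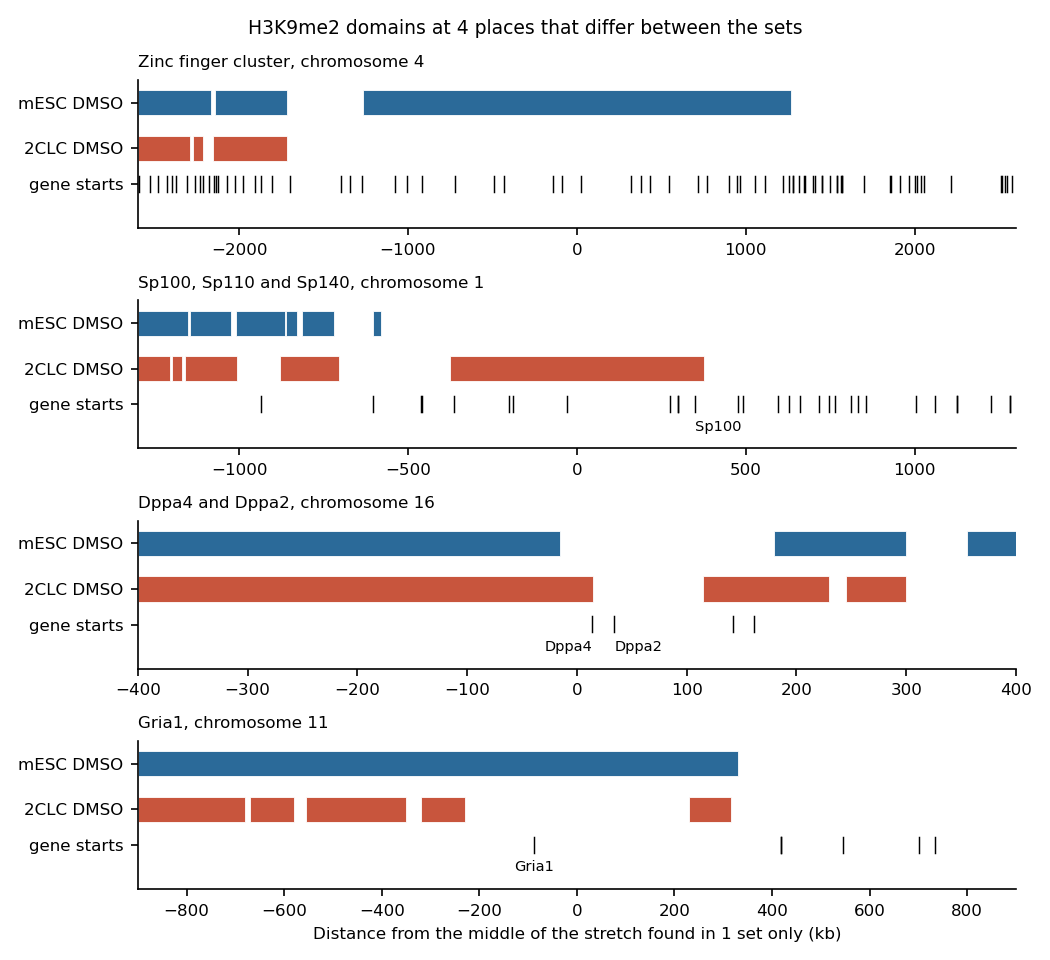
Domains of mESC DMSO (blue) and 2CLC DMSO (orange) and protein-coding gene starts (ticks) against distance in kb from the middle of a stretch found in 1 list. The zinc finger cluster lies in an mESC domain of 2530 kb with no 2CLC domain, Sp100 in a 2CLC domain of 750 kb with no mESC domain, Dppa4 in the last 30 kb of a wide 2CLC domain, and Gria1 in a 460 kb gap of the 2CLC list.

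Bases of 1 state differed in sequence from shared ones, and mESC-only and 2CLC-only bins differed from each other. Bins in both lists had a median GC content of 39.0%, 2CLC-only bins 41.1%, mESC-only bins 42.5% and bins in neither 44.9%. This order of 2CLC-only below mESC-only held on 19 of 19 chromosomes. Soft-masked sequence, which marks interspersed and simple repeats, had a median of 32.6% in shared bins, 26.7% in 2CLC-only and 23.7% in mESC-only bins, and was higher in 2CLC-only than in mESC-only bins on 18 of 19 chromosomes. Recurring 50-mers started at 7.67% of positions in mESC-only and 8.44% in 2CLC-only bins, against 11.3% in shared bins. By GC and repeats, 2CLC-only bins were thus closer to shared domains than mESC-only bins were. Neighbouring bins are not independent, and these values are descriptions.

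By genes the order was the other way round. Shared bins held 3.38 protein-coding gene starts per Mb, against 4.12 in mESC-only bins, 8.86 in 2CLC-only bins and 15.2 in bins in neither list. The 2CLC-only value was above the mESC-only value on 19 of 19 chromosomes. It held for every kind of stretch, with 6.65 against 3.29 per Mb in domains of their own, 9.89 against 4.70 at edges and 11.9 against 4.74 in filled gaps. The bases found in 2CLC domains only were fewer than those in mESC domains only and carried more gene starts.

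Of 20807 protein-coding gene starts, 623 lay in mESC domains only, which is a background of 2.99% (2.77% to 3.23%), and 763 in 2CLC domains only, a background of 3.67% (3.42% to 3.93%). Another 3830 were in domains of both lists and 15591 in neither. So 14.0% (13.0% to 15.0%) of the 4453 gene starts in mESC domains were outside 2CLC domains, and 16.6% (15.6% to 17.7%) of the 4593 in 2CLC domains were outside mESC domains. On 13 of 19 chromosomes more starts were 2CLC-only than mESC-only. The order turned when the count took in pseudogenes and noncoding genes. Among 51229 genes of any type, 2346 starts were mESC-only and 1998 were 2CLC-only. By gene body, with at least 50% of the body in domains, 577 protein-coding genes were mESC-only and 596 were 2CLC-only.

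Edges held more of the gene starts found in 1 state than either other kind of stretch. Of the mESC-only starts 308 were at an edge, 216 in a domain of its own and 99 in a filled gap, and of the 2CLC-only starts 342, 254 and 167. The median stretch around an mESC-only start measured 55 kb and that around a 2CLC-only start 40 kb. A single-bin stretch carried 60 of the mESC-only starts and 102 of the 2CLC-only starts, so that these calls rest on 1 bin. Both groups had long genes, with medians of 30.6 kb (mESC only) and 26.5 kb (2CLC only), against 8.43 kb for genes with their start in both lists and 19.5 kb for those in neither.

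CpG content of the promoters followed the same order as gene density. It was taken from 250 bases before to 50 bases after each GENCODE start as the observed number of CG dinucleotides over the number expected from the counts of C and G. A ratio of at least 0.6, typical of CpG islands, was reached by 8.07% (7.25% to 8.97%) of promoters in both lists, 24.6% (21.3% to 28.1%) of mESC-only, 39.8% (36.4% to 43.4%) of 2CLC-only and 55.8% (55.1% to 56.6%) of promoters in neither, against 45.5% of all 20807. The median number of CG dinucleotides per window was 2.00, 6.00, 9.00 and 16.0 in that order. Edges stood out on the 2CLC side, where 45.9% (40.7% to 51.2%) of promoters reached the ratio against 27.3% (22.6% to 32.5%) at mESC-only edges. No test was made of these differences, since genes of a cluster share domains and are not independent.

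**Figure D4:**
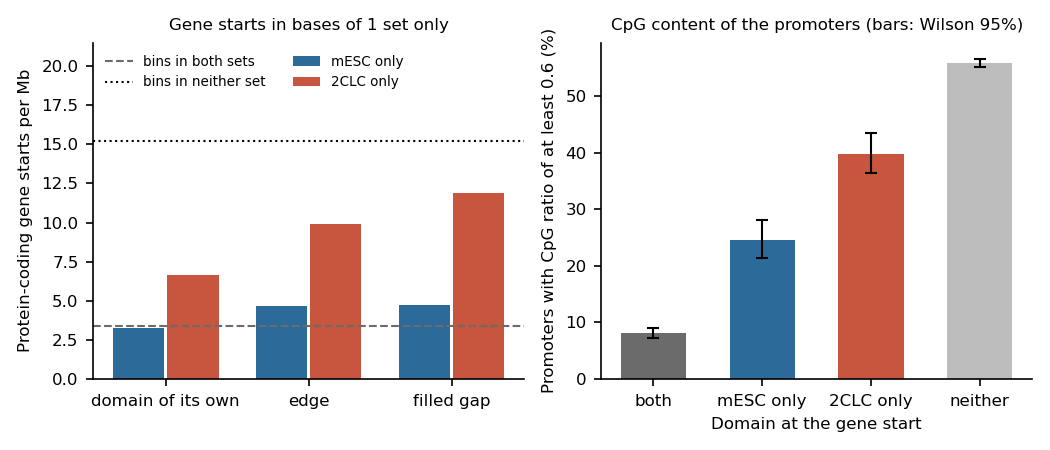
Left, protein-coding gene starts per Mb in bases of only mESC (blue) or only 2CLC (orange) domains by kind of stretch, with lines for bins in both lists (3.38) and neither (15.2), and right, share of promoters with a CpG ratio of at least 0.6 with Wilson 95% intervals. The 2CLC-only bars exceed the mESC-only bars in each kind, and the promoter shares rise from both through mESC only and 2CLC only to neither.

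Genes of the 2-cell programme were for the most part in domains of both states. Both lists had domains over the starts of all 8 Zscan4, 7 Obox, 5 Tdpoz and 5 Usp17l genes, against 18.4% of all protein-coding gene starts. Zscan4c and Zscan4d, telomere-associated zinc finger genes that define the state, lay in a domain that measured 5275 kb in mESCs and 5290 kb in 2CLCs. Of 11 Pramel and Pramef genes, 8 were in both and Pramel1 was in neither. Pramef12 and Pramef20 were in mESC domains only, by 1 edge of 50 kb on chromosome 4 (18.2% against a background of 2.99%). Among 9 other 2-cell genes, Zfp352, Gm21761 and Tcstv3 were in both, and Tcstv1, Arg2, Spz1 and Eif1a in neither. The domain at Tcstv3 was 220 kb wide in mESCs and 45 kb in 2CLCs. Tcstv1 was 2.00 kb from the nearest mESC domain and 3.00 kb from the nearest 2CLC domain, less than a bin.

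Apart from the Pramef pair, the few 2-cell genes that differed had their start in 2CLC domains only. They lay at too few places to give a direction for 2-cell genes. Of the 9 other 2-cell genes, Sp110 and Duxf3 (22.2%) had a start in 2CLC domains only, against a background of 3.67%. In the edge at Duxf3 88.4% of bases are N. In the domain at Sp110 13.3% are N and recurring 50-mers start at 51.0% of positions. Sp100, Sp110 and Sp140 had their starts in the same 750 kb domain, so they count as 1 difference in position and not as 3, and the nearest mESC domain was 930, 879 and 880 kb away. Dppa4, whose product together with that of Dppa2 opens 2-cell gene promoters, had its start (chromosome 16, 48283733) in the last 30 kb of a 2CLC domain of 2065 kb, and 28.9 kb beyond the nearest mESC domain. The end of that 2CLC domain, at 48284848, was within a bin of the start. Dppa2 was in neither list, 49.1 kb from an mESC domain and 19.1 kb from a 2CLC domain.

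Genes of pluripotency and of the H3K9 methylation pathway did not change class, as was true of most genes. Over all 20807 protein-coding gene starts, 74.9% were in neither list, 18.4% in both, 2.99% in mESC domains only and 3.67% in 2CLC domains only. At these shares, lists this short would hold few changed members. All 26 pluripotency genes were outside domains in both lists. For Pou5f1, which encodes OCT4, the nearest domain was 589 kb away in mESCs and 114 kb in 2CLCs, for Nanog 189 and 184 kb, and for Sox2 231 and 276 kb. Of 25 genes of the H3K9 methylation machinery, Kdm4c, a demethylase, Atf7ip, a partner of the methyltransferase SETDB1, and the deacetylase gene Hdac2 were in domains of both lists and the other 22 in neither. Ehmt2 itself was 8.50 kb from the nearest domain in either list, and Ehmt1 632 and 582 kb. Of 17 retinoic acid genes, the receptor gene Rarb and Aldh1a1, a retinaldehyde dehydrogenase, were in both and 15 in neither. The start of Cyp26a1, which degrades retinoic acid, was 1289 kb from the nearest mESC domain but 9.01 kb from the nearest 2CLC domain. Of 24 germline and meiosis genes only Asz1 was in domains, in both lists.

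Hox, histone and ribosomal protein genes were outside domains, and few developmental regulators differed. Neither list had a domain at the start of any of 39 Hox genes, 75 histone genes or 74 cytosolic ribosomal protein genes. Of all protein-coding gene starts, 74.9% were in neither list. Of 131 developmental transcription factors, 127 were in neither and 4 in 2CLC domains only, 3.05% of the list against the background of 3.67%. These were Sox11 in a domain of 45 kb, Sox17, which specifies endoderm, at an edge of 20 kb, Foxq1 at an edge of 10 kb and Foxp2 in a filled gap of 10 kb. The stretches at Sox17, Foxq1 and Foxp2 were narrower than the median of 40 kb around a 2CLC-only start, and that at Sox11 was near it.

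**Figure D5:**
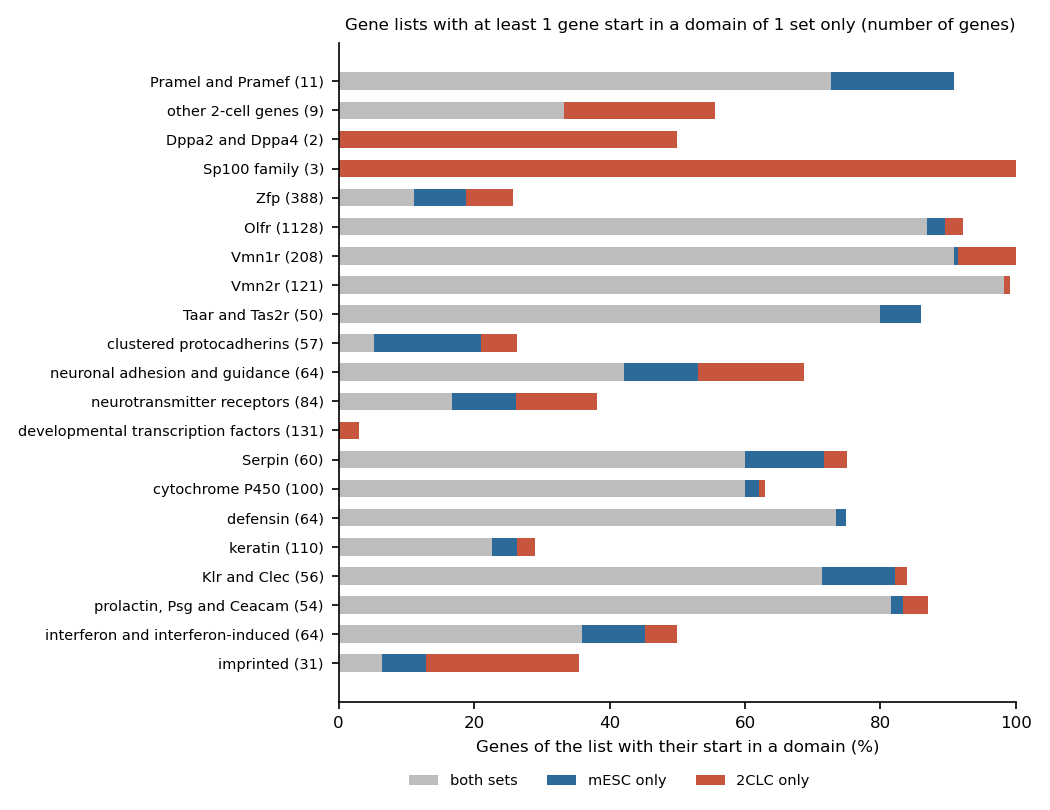
Percent of the genes of each list with their start in domains of both lists (grey), mESC only (blue) or 2CLC only (orange), for the gene lists with at least 1 start in 1 state only, with the number of genes in parentheses. Olfr, Vmn1r and Vmn2r genes are mostly grey, and the orange part exceeds the blue in Vmn1r and imprinted genes whereas the blue exceeds the orange in clustered protocadherins, Serpin and Klr and Clec genes.

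Chemosensory receptor families, long arrays that are silent outside sensory neurons, were in domains of both lists at 86.8% of 1128 Olfr genes, 90.9% of 208 Vmn1r genes and 98.3% of 121 Vmn2r genes. Differences in Olfr genes were even, with 31 in mESC domains only and 30 in 2CLC domains only. These are 2.75% and 2.66% of the family, no more than the backgrounds of 2.99% and 3.67%, which count all genes. Among starts in mESC domains, 31 of 1010 Olfr starts were unshared, against 623 of 4453 over all genes. Among starts in 2CLC domains these were 30 of 1009 against 763 of 4593, so Olfr starts differed less often on this base. In Vmn1r genes 18 starts (8.65%) were 2CLC-only and 1 was mESC-only, that of Vmn1r4. The 18 lay in 7 stretches, and 8 of them in the 300 kb gap of repeated sequence on chromosome 7. In all, 190 of 208 Vmn1r genes were in mESC domains and 207 in 2CLC domains. Of these, 1 of 190 and 18 of 207 were unshared, against 623 of 4453 and 763 of 4593 over all genes. Vmn1r starts thus also differed less often on this base, although 8.65% is above the background of 3.67%. Vmn2r117 was the only Vmn2r gene that differed. Taste and trace amine receptors had 3 mESC-only starts of 50 (6.00% against a background of 2.99%), Taar6, Taar7a and Taar7b, in 1 edge of 35 kb. Among starts in mESC domains these were 3 of 43, against 623 of 4453 over all genes.

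Zinc finger genes differed in both directions. Of 388 Zfp genes, 30 (7.73%) were mESC-only, 27 (6.96%) 2CLC-only and 43 in both, against backgrounds of 2.99% and 3.67%. The mESC-only genes lay in 11 stretches and 18 of them in the single 2530 kb domain on chromosome 4, while the 27 2CLC-only genes were spread over 22 stretches. Examples of the latter were Zfp788 at an edge of 145 kb, Zfp277 in a domain of 85 kb, and Zfp110, Zfp128 and Zfp329 in a domain of 75 kb on chromosome 7. Outside the chromosome 4 domain the mESC-only genes numbered 12, or 3.09% of the family, near the background of 2.99%.

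Neuronal genes were among the lists with the highest share of differing starts. Of 64 genes of neuronal adhesion and guidance, 27 were in domains of both, 7 (10.9%) in mESC domains only and 10 (15.6%) in 2CLC domains only, against backgrounds of 2.99% and 3.67%. The mESC-only genes were Ntm, Cntnap4, Lrrtm3, Cntn1, Cdh9, Epha7 and Robo2, and each lay in its own stretch. Ntm, an adhesion molecule of the IgLON family, was in a filled gap of 175 kb, Cntnap4 in one of 105 kb, and the gap at Cdh9 and at Epha7 was 5 kb, a single bin. The 2CLC-only genes included the cadherin genes Cdh2, in a domain of 50 kb, and Cdh10 and Cdh6, in gaps of 15 kb, and the ephrin receptor gene Epha6 in a gap of 30 kb. The remaining 2CLC-only genes of this list lay in stretches of 10 kb or of a single bin, near the resolution of the calls. Each of the 10 2CLC-only genes was also in a stretch of its own.

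Neurotransmitter receptor genes numbered 84, of which 14 were in both lists, 8 (9.52%) in mESC domains only and 10 (11.9%) in 2CLC domains only, against backgrounds of 2.99% and 3.67%. Gria1 in its 460 kb gap was the widest case, followed by the adrenergic receptor gene Adra1a in a domain of 225 kb and the NMDA receptor gene Grin2b in one of 200 kb, all mESC-only. In 2CLCs the nicotinic receptor genes Chrna6 and Chrnb3 shared a filled gap of 110 kb. The mESC-only stretches at these genes were thus wider at the top of the order. Of 57 clustered protocadherin genes, 9 (15.8%) were mESC-only and 3 (5.26%) 2CLC-only, with 7 of the 9 in 1 edge of 60 kb, among them Pcdha5, Pcdha6 and Pcdha7. Pcdha1 and Pcdha2, of the same array, were 2CLC-only by an edge of 15 kb.

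Imprinted genes, which are expressed from 1 parental copy, had 7 2CLC-only starts (22.6% of 31) and 2 mESC-only starts (6.45%), against backgrounds of 3.67% and 2.99%. Peg3, Usp29 and Zim1 lay in 1 edge of 40 kb on chromosome 7, Peg10 and Sgce in 1 edge of 25 kb on chromosome 6, and Mkrn3 in an edge of 50 kb. Ube3a was the seventh, and the 7 genes lay in 4 stretches. Slc22a2, in an edge of 50 kb, and Ndn, in one of 10 kb, were mESC-only. Snrpn and Dcn were in both lists.

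Other families of immunity, secretion and metabolism are read against the backgrounds of 2.99% (mESC only) and 3.67% (2CLC only), and few stretches stand behind their counts. Serpin genes, protease inhibitors, had 7 mESC-only starts (11.7% of 60) in 3 stretches, 4 of them, Serpina3i, Serpina3j, Serpina3k and Serpina3m, in a domain of 125 kb, and 2 2CLC-only starts (3.33%), Serpinb9g and Serpini2. Lectin-like receptors of the Klr and Clec families had 6 mESC-only starts (10.7% of 56) in 6 stretches, among them Klra2 in a gap of 40 kb, and 1 2CLC-only start (1.79%), Klre1. Interferon genes and their targets had 6 mESC-only starts (9.38% of 64), of which Gbp10 and Gbp6, guanylate-binding proteins, shared a gap of 115 kb, and 3 2CLC-only starts (4.69%), Ifit3b, Ifna2 and Ifnab. Among starts in mESC domains, 7 of 43 Serpin, 6 of 46 Klr and Clec and 6 of 29 interferon starts were unshared. Over all genes these were 623 of 4453, or 14.0%. On this base Serpin and Klr and Clec starts were near the share over all genes, and interferon starts were above it. Keratin genes were near the backgrounds, at 4 (3.64%) and 3 (2.73%) of 110. Cytochrome P450 genes differed at Cyp4f40 and Cyp2d9 towards mESCs and at Cyp2b10 towards 2CLCs, 2.00% and 1.00% of 100 genes and below the backgrounds. In the remaining lists, Defb5 was the only one of 64 defensin genes that differed and was mESC-only (1.56%). Of 54 prolactin, Psg and Ceacam genes, Prl2c2 and Prl2c3 (3.70%) were 2CLC-only, near the background, and Ceacam20 (1.85%) was mESC-only.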

How the data were processed

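H3K9me2 was measured by ULI-NChIP in sorted mESCs and 2CLCs after 72 h in DMSO. Per the methods and processing notes, the authors trimmed reads with Trim Galore, aligned them to mm10 with STAR 2.7.10, which kept 1 best match of reads with several, chosen in random order, and removed duplicates with Picard 2.26.0 and regions of artificially high signal. Coverage from deepTools 3.5.1 was normalised to 1-fold genome content, a step that ignored chromosomes X and M, and was averaged in 10 kb windows on a 5 kb grid, places without signal were ignored, and the log2 ratio over input was taken. Bins over a high percentile seeded domains, which grew outward to a bin under a low percentile. The sources used here do not say if replicates were merged first or if each list had percentiles of its own. With percentiles of its own, total domain length follows the shape of the ratio more than the amount of the mark.

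The deposited lists give chromosome, start and end of each domain (mm10), with a score of 0 throughout that was not used. Coordinates are printed 1-based. The other deposited lists were not used here, and no column was left without a condition.

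Overlaps were computed base by base with Python 3.11.15 and numpy 2.4.6, and tested on simulated intervals with known answers. Overlapping domains of the lists were joined into groups. Unequal borders of the lists lay at least 4999 bp apart, 1 bin. Bin composition came from the soft-masked RefSeq assembly GRCm38.p6, gene starts from GENCODE M21, and promoters and printed sequences from the same assembly. A recurring 50-mer occurs more than once on its chromosome and strand. Genes counted as in a domain by their start. The 32 gene lists were matched by symbol or prefix, without genes on X.

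The domains, gene lists and rules were chosen with earlier results of these data known. Named were a list of 23 genes, in each direction the 15 genes at the widest stretches found in 1 list, up to 6 changed members a list and direction by width of the stretch, and up to 8 genes in each region. Regions were the 5 widest or most divided of each kind. Changed or exceptional list members beyond this rule, where 5 or fewer or completing a small list, were named after their values were seen. A few genes that the rule names are not reported here. Alternatives were a minimum width of 50 kb, joining across 10 kb, adding chromosome X, leaving out repeated bins, stricter overlap, other genes and leaving out each chromosome.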

Additional observations from a re-analysis of the deposited data

Results flagged for a closer look

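Chromosomes X and Y were outside the comparison and also carried domains. On chromosome X, mESC domains covered 72.3% in 453 domains and 2CLC domains 77.3% in 376, so the direction was opposite to that of 18 autosomes. Of the bases in domains on X, 96.2% in mESCs and 90.0% in 2CLCs were shared. On chromosome Y, 10.1% was covered by 6 mESC domains and 43.9% by 2 2CLC domains, of which 1 spanned 38955 kb. Of the Y bases in domains, 98.9% in mESCs and 22.7% in 2CLCs were shared. These are values of 1 list each, without replicates, and the upstream scaling left chromosome X out.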

How the results depend on the processing

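For 20 results, 228 alternative values were computed. Of these, 206 stayed within 1.5 times a count or density, the Wilson interval of a share or the quartiles of a median, and 22 moved beyond that. None of the 152 that left out 1 chromosome moved, and these are among the 206. For counts this says little, since each chromosome holds too small a part of a count to pass 1.5 times. The 2CLC-only domains, for example, went from 669 to 596 without chromosome 2, their lowest value. Joining across gaps of up to 10 kb changed most. It lowered the mESC domains broken in 2CLCs from 771 to 318 and the fused 2CLC domains from 674 to 240, and gave 33.2% of mESC-only bases in domains of their own, 46.3% at edges and 20.5% in filled gaps, against 43.2%, 43.1% and 13.7%. In 2CLCs these shares became 35.5%, 45.9% and 18.6%, against 44.0%, 39.9% and 16.1%. With fewer narrow gaps there are fewer breaks by construction. With domains of at least 50 kb, the number of 2CLC-only domains went from 669 to 388, a count that includes domains whose narrow mESC partners were left out, domains of their own held 45.9% and filled gaps 12.4% of mESC-only bases, and domains of their own 42.0% and edges 42.4% of 2CLC-only bases. Without bins of at least 50% recurring 50-mers, the mESC-only shares were 49.5%, 39.4% and 11.2% and the 2CLC-only shares 48.9%, 37.9% and 13.1%. With chromosome X, filled gaps held 18.0% of 2CLC-only bases. Counting all annotated genes gave 2346 mESC-only and 1998 2CLC-only starts, so the order of 623 and 763 turned. Single-bin gaps are at the resolution of the calls. Depth, differences between cultures and the presence of TTNBP were not tested, for lack of values per library. No paired analysis was possible because each condition has 1 list and no value per replicate.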
